A study of Mus musculus with 18 samples.

Results

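The 6 libraries described here are the 3 of AT-3 and the 3 of E0771 that carried wild-type MRTFA, of 18 libraries in the series, and they were taken by their column names in the count table. They ask which genes still separate a pair of mouse mammary carcinoma lines when both are driven by the same coactivator, and what level the contractile genes reach in each. Both lines carried a doxycycline-inducible retroviral vector, pRetroX, holding wild-type MRTFA, and the reference groups held either the empty vector or MRTFA with the Y238A change, which the submitters describe as deficient in binding SRF. All 6 groups of 3 libraries, controls included, were induced with 2 µg/ml doxycycline for 48 h. The series asks how MRTFA with SRF affects the stiffness of cancer cells.

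MRTFA is a coactivator that binds monomeric actin. When actin polymerises, MRTFA is released, enters the nucleus and joins the transcription factor SRF at CArG boxes, which lie upstream of many genes of actin, myosin and their partners. In smooth muscle the related cofactor myocardin uses the same sites to drive the contractile program, and in carcinoma cells the pathway is known for its part in adhesion, migration and matrix stiffness sensing.

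Library totals of the 6 libraries ran from 81265466 to 115260128 counts, and levels are given as CPM, counts scaled to a common library size with TMM factors. Even counts made up 61.9% to 64.6% of values, as when both mates of a pair are counted, so bounds from counts are too narrow. The labels do not name separate cultures beyond 3 replicate sets, so p-values may measure technical spread alone, and the labels do not say how many transductions stand behind a group. Among AT-3 libraries with wild-type MRTFA, replicate 1 stood apart: its counts differed from the other two by a chi-square per degree of freedom of 41.3 and 53.4, against 7.15 between replicates 2 and 3. E0771 wild-type replicate 2 held a median of 0.510% of the AT-3 level over 277 genes that AT-3 expressed and E0771 nearly lacked, against 0.0326% and 0% in replicates 1 and 3. The same measure was 1.35% in E0771 empty vector replicate 2. In the other direction, over 123 genes that E0771 expressed and AT-3 nearly lacked, the 3 AT-3 wild-type libraries held 0.358% to 0.448% of the E0771 level, against 0.144% to 0.209% in AT-3 with empty vector. Of the genes named here with counts in AT-3, Ackr3 (0.274% of its E0771 mean), Hoxd8 (0.260%), Prrx1 (0.197%) and Rsad2 (0.184%) had AT-3 means below that share, so their AT-3 levels and the size of their differences are uncertain, and the part of RNA or reads from the other line in them was not tested. For genes near 0 in E0771 the value without the library that moves it is given beside it.

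Both lines are labelled mammary carcinoma, yet the defining luminal markers were near absent or unequal. Epcam, an epithelial adhesion protein, stood at 0.565 ± 0.203 CPM in AT-3 and 1.64 ± 0.277 CPM in E0771, and Cdh1, which encodes E-cadherin, at 1.01 ± 0.348 CPM in AT-3 and 0.481 ± 0.138 CPM in E0771. Krt18, a simple epithelial keratin, was at 0.281 ± 0.0956 CPM in AT-3 and 0.144 ± 0.0318 CPM in E0771. Krt8, its usual partner, separated the lines with 11.1, 9.17 and 9.72 CPM in AT-3 and 678, 621 and 567 CPM in E0771. Of 7 luminal markers tested, 3 were higher in AT-3 and 3 in E0771 (42.9% each), where 45.3% and 34.5% of all genes were. The counts of the marker lists below stand beside the same shares of all genes. Each list held few tested genes, so its count alone is no finding about a cell type. The summed level of the 8 listed was 50.8 to 53.1 CPM in AT-3 and 576 to 688 CPM in E0771. Nearly all of the E0771 sum was Krt8, while most of the AT-3 sum was Krt19. The 8 leukocyte markers summed to 24.9 to 25.5 CPM in AT-3 and 6.07 to 6.66 CPM in E0771, with 3 of the 4 tested higher in AT-3 and 1 in E0771. Most of the AT-3 sum was Cd68, a lysosomal protein of macrophages, at 20.9 ± 0.348 CPM. Endothelial markers summed to 3.36 to 3.86 CPM in AT-3 and 1.06 to 1.45 CPM in E0771 (3 of 5 tested higher in AT-3, 1 in E0771), and adipocyte markers to below 1 CPM in every library (0 of 2 called). Fibroblast markers summed to 51.0 to 53.8 CPM in AT-3 and 784 to 812 CPM in E0771 (2 of 5 higher in AT-3, 2 in E0771), and most of the E0771 sum was Col3a1. Myoepithelial markers other than Acta2 were below 5 CPM on average in both lines, with 3 of 6 tested higher in AT-3 and 0 in E0771. Vascular smooth muscle and pericyte markers summed to 4018 to 4172 CPM in AT-3 and 117 to 142 CPM in E0771 (4 of 7 higher in AT-3, 1 in E0771), carried by Cnn1, Mcam and Myh11. The part of other cell types in the results was not tested. In bulk RNA, fewer cells of a type and less RNA per cell cannot be told apart.

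Most genes separated the lines under wild-type MRTFA. Of 17841 genes tested, 14241 passed an adjusted p of 0.05 (79.8%), with 8083 higher in AT-3 (45.3%) and 6158 higher in E0771 (34.5%). The larger number on the AT-3 side depended on scaling and on the filter. With library totals the counts were 7065 and 7161, as the median of all genes shifted by -0.21 on the log2 scale. With a stricter filter on low counts, which tests fewer genes, they were 5863 and 5589. At a 2-fold difference or more the calls were 8815 (49.4%), with 5528 higher in AT-3 (31.0%) and 3287 higher in E0771 (18.4%). The libraries of the lines did not overlap for 82.9% of genes. The median absolute log2 difference between lines was 1.12 under wild-type MRTFA and 0.87 under empty vector.

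The same contrast between the empty vector groups, which shares no library with the wild-type one, called 12847 genes (72.0%), 6561 higher in AT-3 (36.8%) and 6286 in E0771 (35.2%). Of these, 10169 were called in the same direction under wild-type MRTFA, which is 71.4% of the wild-type calls and 79.2% of the empty vector calls. The test of the difference between the gaps, which uses the libraries of both contrasts, called 8434 genes (47.3%), 4285 with a gap moved toward AT-3 (24.0%) and 4149 toward E0771 (23.3%). With library totals that split was 3537 and 5266, and with the stricter filter it was 3278 and 4729. Without AT-3 wild-type replicate 3 it was 3154 and 5508, so neither direction was the larger under every setting. A gap opened in 1580 genes (8.86%), meaning that it was called under wild type but not under empty vector and the difference was called too. It closed in 1034 (5.80%) and reversed in 1024 (5.74%). Among genes kept in the same direction, 3065 had a wider gap (17.2%), 1677 a narrower one (9.40%) and 5427 no call on the difference (30.4%). A further 1468 were called under wild type alone with no call on the difference (8.23%).

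Several of the genes with the largest differences had counts in 1 line and none in the other. Usp53, a member of the ubiquitin peptidase family, was at 18.4, 16.9 and 17.1 CPM in AT-3 with 0 counts in the 3 E0771 libraries, at least 1711-fold higher when 3 counts over the group are taken as the floor. Pcdh9, a protocadherin, was at 15.3, 16.4 and 14.3 CPM in AT-3 and at 0 in E0771, at least 1503-fold higher. Cnr1, the cannabinoid receptor of neurons, was at 15.1, 15.2 and 14 CPM in AT-3 and at 0 in E0771, at least 1445-fold higher. These 3 genes were also on the AT-3 side under empty vector, where their AT-3 means were 13 ± 0.863, 21.3 ± 1.32 and 2.62 ± 0.483 CPM. Nipal4, a magnesium transporter, was at 14.3, 9.02 and 9.58 CPM in AT-3 and at 0 in E0771, and at only 0.0753 ± 0.0295 CPM in AT-3 with empty vector. In the other direction Crmp1, a collapsin response mediator of axon guidance, was at 153, 155 and 157 CPM in E0771 with 0 counts in AT-3, at least 14391-fold higher. Phox2a, a homeodomain factor of noradrenergic neurons, was at 16.4, 12.6 and 13.9 CPM in E0771 and at 0 in AT-3, at least 1337-fold higher. These bounds cover counting error alone.

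The construct itself was unequal between the lines. The entry named MRTFA, taken here as the construct, stood at 7082, 4835 and 4386 CPM in AT-3 and 866, 707 and 709 CPM in E0771, a ratio of 7.14 between means. The log2 difference was 2.84 ± 0.21 (SE from the fit of all 18 libraries, n = 3 per group, adjusted p = 3.13e-08). All 3 AT-3 libraries lay above all 3 E0771 libraries, and AT-3 replicate 1 was the highest. Empty vector libraries held a mean of 0.016 ± 0.0138 CPM in AT-3 and 0.0736 ± 0.0639 CPM in E0771. With Y238A the entry was at 2105 ± 195 CPM in AT-3 and 319.7 ± 37.4 CPM in E0771. Construct level and line cannot be told apart in the comparisons of the wild-type or the Y238A groups, nor in the difference between the gaps under wild type and empty vector.

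Genes of the MRTF and SRF machinery were mostly higher in AT-3 under both wild type and empty vector. Under wild type 9 of 11 tested were higher there (81.8%, against 45.3% of all genes) and 1 in E0771 (9.09%, against 34.5%). Their median log2 difference was 0.95 against 0.24 over all genes. Under empty vector 8 were higher in AT-3 and 1 in E0771, with a median of 1.16. The gap moved toward AT-3 in 5 and toward E0771 in 5 (45.5% each, against 24.0% and 23.3% of all genes). Srf, the DNA-binding partner, was at 577, 584 and 592 CPM in AT-3 and 402, 373 and 352 CPM in E0771, a log2 difference of 0.64 ± 0.07 (adjusted p = 1.35e-07). The Srf groups did not overlap, and the gap was wider than under empty vector (difference between the gaps 0.44 ± 0.10). Endogenous Mrtfa stood at 110.5, 115 and 110.2 CPM in AT-3 and 57.1, 58 and 59 CPM in E0771 (0.95 ± 0.04). Mrtfb, its paralogue, was the member higher in E0771, at 36.3, 38.3 and 34.7 CPM in AT-3 and 48.2, 48.7 and 47.1 CPM in E0771 (-0.40 ± 0.05), and its gap had the other direction under empty vector (0.33 ± 0.05). Elk1, a ternary complex factor that competes with MRTF for SRF, was at 156 ± 4.47 CPM in AT-3 and 25.7 ± 0.513 CPM in E0771 (2.60 ± 0.06). Phf8, a histone demethylase, was at 161 ± 7.98 CPM in AT-3 and 19.7 ± 1.01 CPM in E0771 (3.03 ± 0.07), and Filip1l, a filamin-interacting relative, at 171 ± 8.64 CPM in AT-3 and 34 ± 0.645 CPM in E0771 (2.33 ± 0.09). Myocd, which encodes myocardin, stayed low in both lines at 0.843, 0.876 and 0.811 CPM in AT-3 and 0.126, 0.163 and 0.119 CPM in E0771, with 0 counts in AT-3 under empty vector.

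Of the 6 actin isoforms, 4 were higher in AT-3 (66.7%, against 45.3% of all genes) and 0 in E0771 (against 34.5%), with a median log2 difference of 1.29. Under empty vector 4 were also higher in AT-3 and 0 in E0771, with a median of 1.15. Counts toward AT-3 under wild type ran from 3 to 5 as single libraries were left out. Their coding sequences are near-identical, so reads may be split between isoforms. Acta2, the smooth muscle alpha actin, stood at 41912, 42877 and 41184 CPM in AT-3 and 11009, 10139.9 and 9896 CPM in E0771. The groups lay far apart, with a log2 difference of 2.02 ± 0.13 (adjusted p = 1.03e-09), narrower than under empty vector (difference between the gaps -0.83 ± 0.17). Actg2, the enteric smooth muscle actin, was at 5969, 6606 and 6414 CPM in AT-3 and 1059, 984 and 948 CPM in E0771 (2.67 ± 0.52, adjusted p = 0.000371). Its gap was narrower than the 6.19 under empty vector, where E0771 held only 3.91 ± 2.04 CPM (difference between the gaps -3.53 ± 0.73). Acta1, skeletal actin, was at 3932, 4171 and 4198 CPM in AT-3 and 829, 727 and 690.3 CPM in E0771 (2.45 ± 0.74, adjusted p = 0.00857), from 7.18 ± 0.358 CPM in AT-3 and 2.08 ± 0.15 CPM in E0771 under empty vector.

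Actc1, cardiac actin, reached 1056, 1016 and 1079.7 CPM in AT-3 and 832, 671 and 647 CPM in E0771. The libraries did not overlap, with AT-3 above, yet the log2 difference of 0.55 ± 0.54 was not called in the fit of all 18 libraries (adjusted p = 0.361). It was called when only the wild-type groups were fitted (0.42, adjusted p = 0.000941). Under empty vector Actc1 was near 0 in both lines, at 0.0242 ± 0.0248 CPM in AT-3 and 0.0701 ± 0.0186 CPM in E0771. The cytoplasmic actins had the smallest differences of the 6. Actb was at 12750.1, 14279 and 14028 CPM in AT-3 and 12041, 11696 and 11306 CPM in E0771 (0.23 ± 0.05, adjusted p = 0.000239), a call lost without AT-3 replicate 3 (adjusted p = 0.0796), with library totals (0.779) and with only the wild-type groups (0.116). Actg1 was at 3260.3, 3746 and 3590.1 CPM in AT-3 and 3471, 3313 and 3234 CPM in E0771, overlapping groups with a log2 difference of 0.08 ± 0.05 (adjusted p = 0.148) whose sign turned with library totals (-0.13, adjusted p = 0.0139) and without AT-3 replicate 3 (-0.044). It was called in the AT-3 direction without AT-3 replicate 1 (0.13, adjusted p = 0.0122), with DESeq2 (0.12, adjusted p = 0.0177) and with DESeq2 size factors in edgeR (0.12, adjusted p = 0.0268).

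Per kilobase of exon, Acta2 made up 58.1% ± 1.22 (SD, n = 3) of all actin transcript in AT-3 and 39.6% ± 0.332 in E0771, from 26.5% ± 0.238 and 6.59% ± 0.384 under empty vector. Actb made up 15.5% ± 0.597 in AT-3 and 36.7% ± 0.734 in E0771, from 55.1% ± 0.199 and 69.9% ± 0.429. In AT-3 the order per kilobase was Acta2, Actb, Actg2, Acta1, Actg1 and Actc1, and in E0771 it was Acta2, Actb, Actg1, Actg2, Acta1 and Actc1. In E0771 the shares of Acta1 (4.09% ± 0.187) and Actc1 (3.71% ± 0.335) overlapped between libraries, at 3.94% to 4.30% and 3.51% to 4.10%, while the ranges of the other neighbours did not overlap.

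**Figure D1:**
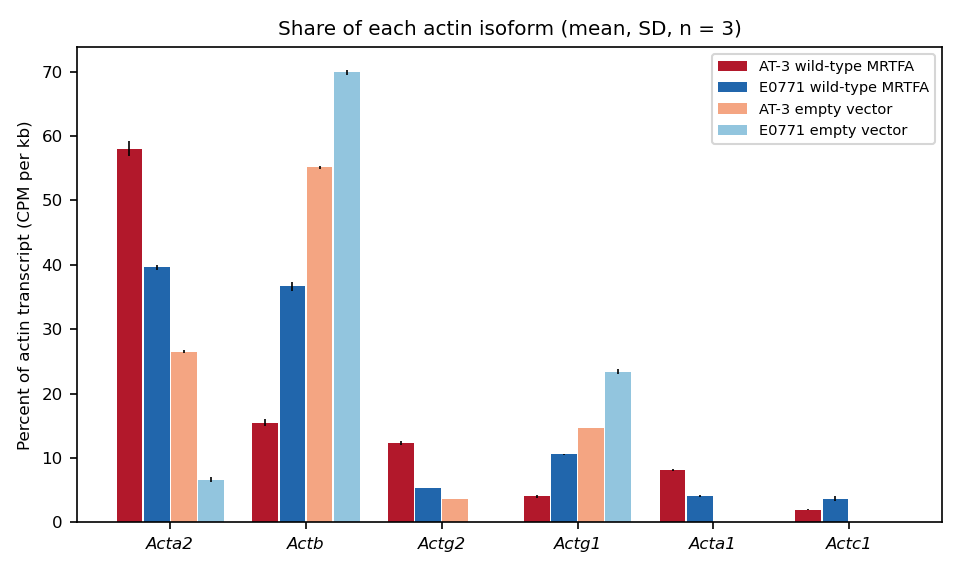
Share of each actin isoform in the summed CPM per kilobase of exon of the 6 isoforms (y axis, percent), by line and construct, with bars for the mean and lines for the SD over 3 libraries. Acta2 was the largest share in both wild-type groups (58.1% in AT-3, 39.6% in E0771), and Actb in both empty vector groups (55.1% and 69.9%).

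Promoters of contractile genes are shown to place the CArG box beside these levels, for genes that were and were not called between the lines. The windows are from RefSeq (GRCm38.p6) and run from 250 bases before the start site to 50 after it, and 64 of the 82 genes of the actin, smooth muscle and sarcomere lists matched an entry. A perfect CArG box, searched on both strands, lay in 14 of these 64 genes (21.9%), against 488 of all 27025 genes with a window (1.81%). The promoters below are those of Actc1 and Actg1, which were not called between the lines in the fit of all 18 libraries, Acta1 and Myl9, higher in AT-3, and Myl7, higher in E0771. They were chosen after their values were seen. Actc1 and Actg1 were each called under some other settings, and the Actc1 libraries of the lines did not overlap. Capitals mark the CArG box.
Actc1, chr2:114052826-114053125, minus strand: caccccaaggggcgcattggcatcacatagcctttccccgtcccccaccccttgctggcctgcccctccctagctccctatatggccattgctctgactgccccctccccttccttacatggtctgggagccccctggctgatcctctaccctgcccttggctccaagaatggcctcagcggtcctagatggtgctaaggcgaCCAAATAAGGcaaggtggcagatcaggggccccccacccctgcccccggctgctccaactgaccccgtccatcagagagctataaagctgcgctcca
Actg1, chr11:120348446-120348745, minus strand: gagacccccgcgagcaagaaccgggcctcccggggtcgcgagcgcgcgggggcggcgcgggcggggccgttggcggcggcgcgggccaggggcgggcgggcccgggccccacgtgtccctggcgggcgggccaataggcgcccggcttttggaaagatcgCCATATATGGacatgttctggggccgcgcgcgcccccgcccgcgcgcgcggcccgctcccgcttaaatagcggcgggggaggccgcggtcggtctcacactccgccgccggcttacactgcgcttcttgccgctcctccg
Acta1, chr8:123894726-123895025, minus strand: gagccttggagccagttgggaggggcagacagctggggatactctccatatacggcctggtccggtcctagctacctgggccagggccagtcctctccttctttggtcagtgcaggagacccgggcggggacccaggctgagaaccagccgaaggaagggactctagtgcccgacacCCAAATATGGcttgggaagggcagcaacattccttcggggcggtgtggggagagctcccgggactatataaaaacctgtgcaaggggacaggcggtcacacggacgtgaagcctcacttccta
Myl9, chr2:156775214-156775513, plus strand: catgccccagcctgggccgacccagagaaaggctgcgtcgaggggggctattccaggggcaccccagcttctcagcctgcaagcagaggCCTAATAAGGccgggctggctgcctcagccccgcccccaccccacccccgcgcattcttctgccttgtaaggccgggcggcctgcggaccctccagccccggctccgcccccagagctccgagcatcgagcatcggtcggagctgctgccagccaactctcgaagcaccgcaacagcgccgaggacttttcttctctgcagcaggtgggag
Myl7, chr11:5898733-5899032, minus strand: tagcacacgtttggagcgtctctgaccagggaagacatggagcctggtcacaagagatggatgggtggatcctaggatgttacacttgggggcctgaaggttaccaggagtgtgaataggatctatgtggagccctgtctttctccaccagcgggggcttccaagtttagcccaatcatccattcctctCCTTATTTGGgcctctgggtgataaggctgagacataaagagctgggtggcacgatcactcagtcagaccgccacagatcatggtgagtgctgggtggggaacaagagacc
The first base of the box lay 47 bases upstream of the start in Actc1, 90 in Actg1, 73 in Acta1, 161 in Myl9 and 61 in Myl7. A match describes these letters and is not a bound site.

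Each of the 26 smooth muscle contractile genes was called between the lines, where 79.8% of all genes were. Of the 26, 21 were higher in AT-3 (80.8%, against 45.3% of all genes) and 5 in E0771 (19.2%, against 34.5%). The libraries of the lines overlapped for none of the 26, and did not overlap for 82.9% of all genes. Their median log2 difference was 1.78, against 1.52 under empty vector, where 17 were higher in AT-3 and 5 in E0771. At 2-fold or more, only 2 of the 5 stayed higher in E0771 and 17 of the 21 in AT-3. Of all genes, 18.4% and 31.0% were called in these directions at 2-fold or more. The summed level was 82674 to 85719 CPM in AT-3 and 25357 to 27640 CPM in E0771, and under empty vector it was 14268 to 14600 and 5627 to 6058 CPM. Against the empty vector of the same line, 25 of the 26 were higher with wild type in AT-3 and 24 in E0771, where 36.4% and 11.2% of all genes were. A mean of at least 1000 CPM was reached by 11 of the 26 in AT-3 and 4 in E0771, and by 6 and 1 under empty vector.

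The smooth muscle myosin heavy chain, its kinase and its light chains were higher in AT-3. Myh11, the smooth muscle myosin heavy chain, stood at 794, 769 and 783 CPM in AT-3 and 36.5, 37.2 and 30.9 CPM in E0771. All AT-3 libraries were above all E0771 libraries, with a log2 difference of 4.49 ± 0.43 (adjusted p = 4.81e-07). Mylk, the kinase that switches myosin on, stood at 915, 894 and 892 CPM in AT-3 and 65.1, 58.1 and 52.3 CPM in E0771 (3.94 ± 0.35, adjusted p = 2.46e-07). Its gap opened under wild type, since under empty vector it was at 2.21 ± 0.043 CPM in AT-3 and 2.1 ± 0.0741 CPM in E0771 and the difference between the gaps was 3.87 ± 0.58 (adjusted p = 0.000105). Myl9, the regulatory light chain, stood at 2249, 2478 and 2391 CPM in AT-3 and 553, 530.2 and 503 CPM in E0771 (2.17 ± 0.25), and Myl6, the essential light chain, at 3009, 3174 and 3178 CPM in AT-3 and 901, 895 and 859 CPM in E0771 (1.82 ± 0.05).

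Calponin and transgelin, actin-binding proteins of the smooth muscle program, were lower in E0771. Cnn1 stood at 1710.2, 1795 and 1719 CPM in AT-3 and 25.9, 31.9 and 23.3 CPM in E0771, a log2 difference of 6.01 ± 0.62 (adjusted p = 9.68e-07). Tagln was at 34.5, 34.3 and 35.3 CPM in AT-3 and 2.14, 1.81 and 1.5 CPM in E0771 (4.25 ± 0.36). Cnn2, a calponin of many cell types, was at 1355 ± 135 CPM in AT-3 and 826 ± 21.7 CPM in E0771 (0.71 ± 0.09), a gap narrower than under empty vector (difference between the gaps -1.42 ± 0.13). Pgm5, which sits at adherens junctions of muscle, was at 20.6, 16.2 and 14.1 CPM in AT-3 and 0.00897, 0.102 and 0 CPM in E0771 (8.78 ± 0.44), and without E0771 replicate 2 its log2 difference was 11.37. Itga8, an integrin of smooth muscle, was at 1.6, 1.31 and 1.04 CPM in AT-3 and 0, 0.0611 and 0 CPM in E0771. E0771 replicate 2 held the only Itga8 counts of that group, so no fold is given.

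Further members of the list were also higher in AT-3, by log2 differences of 0.29 to 1.89 for those given here. Tropomyosins Tpm1 (7729.5 ± 197 CPM in AT-3 and 2088 ± 112 CPM in E0771, log2 difference 1.89 ± 0.06) and Tpm2 (1326 ± 73 CPM in AT-3 and 629.7 ± 15.4 CPM in E0771, 1.07 ± 0.06) hold the filament. Caldesmon, Cald1, was at 1995 ± 43.2 CPM in AT-3 and 979 ± 28.4 CPM in E0771 (1.03 ± 0.05), and the LIM protein Csrp1 at 3890.0 ± 206 CPM in AT-3 and 1159 ± 82.7 CPM in E0771 (1.75 ± 0.06). Leiomodin Lmod1, a filament nucleator, reached 439, 448 and 447 CPM in AT-3 and 126, 122 and 124 CPM in E0771 (1.84 ± 0.38, adjusted p = 0.00056) from 1.2 ± 0.172 CPM in AT-3 and 0.886 ± 0.114 CPM in E0771 under empty vector. The AT-3 libraries of Lmod1 lay close together and above all of E0771. Mrvi1, a substrate of cGMP kinase, was at 120.3 ± 7.06 CPM in AT-3 and 36.5 ± 2.19 CPM in E0771 (1.72 ± 0.22), Pdlim7 at 863 ± 38 CPM in AT-3 and 454 ± 41.9 CPM in E0771 (0.93 ± 0.07), and the crosslinker Flna at 8431 ± 236 CPM in AT-3 and 6899 ± 178 CPM in E0771 (0.29 ± 0.05), a call lost with library totals (adjusted p = 0.143).

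Synpo2 and Synm changed sides. Synpo2, a Z-disc and stress fibre protein, stood at 109.8, 97.8 and 99.1 CPM in AT-3 and 21.3, 19.7 and 19.9 CPM in E0771 (2.33 ± 0.16), with -0.67 ± 0.17 under empty vector. Synm, the intermediate filament protein synemin, stood at 51.9, 34 and 34.1 CPM in AT-3 and 27.4, 23.3 and 23.6 CPM in E0771 (0.69 ± 0.23, adjusted p = 0.0129), with -5.62 ± 0.38 under empty vector. AT-3 replicate 1 was the highest of Synm, and without it the adjusted p was 0.0821, as it was 0.0736 with library totals.

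The 5 genes higher in E0771 were Kcnmb1, Ppp1r14a, Des, Ppp1r12b and Smtn. Kcnmb1, the smooth muscle subunit of the large-conductance calcium-activated potassium channel, stood at 0.523, 0.6 and 0.586 CPM in AT-3 and 23.9, 24.2 and 23.6 CPM in E0771 (-5.39 ± 0.31, adjusted p = 2.27e-11). It was near 0 in both lines under empty vector (0.014 ± 0.0243 CPM in AT-3 and 0.0346 ± 0.0441 CPM in E0771), so the gap opened toward E0771. Ppp1r14a, an inhibitor of myosin phosphatase, was at 0.766, 0.484 and 0.698 CPM in AT-3 and 9.66, 9.17 and 9.01 CPM in E0771 (-3.83 ± 0.30). Des, desmin, was at 3.16, 2.77 and 2.92 CPM in AT-3 and 4.95, 4.91 and 5.43 CPM in E0771 (-0.79 ± 0.24), a gap narrower than under empty vector (difference between the gaps 4.12 ± 0.44). Ppp1r12b, a myosin phosphatase subunit, was at 45.4 ± 3.75 CPM in AT-3 and 61.1 ± 0.997 CPM in E0771 (-0.43 ± 0.13), and Smtn, smoothelin, at 168 ± 9.85 CPM in AT-3 and 209 ± 9.44 CPM in E0771 (-0.31 ± 0.06).

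**Figure D2:**
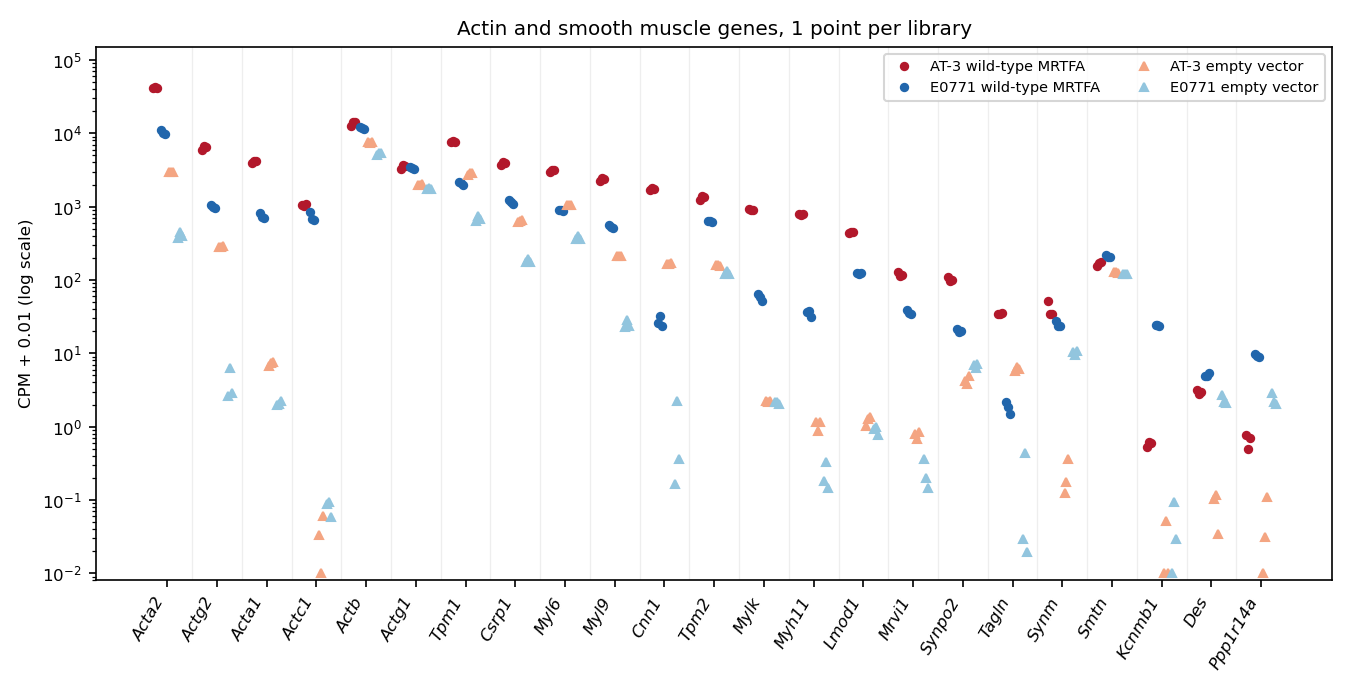
CPM of actin and smooth muscle genes in each library (y axis, CPM plus 0.01 on a log scale), 1 point per library, for both lines with wild-type MRTFA (circles) and empty vector (triangles). For Acta2 the 3 AT-3 libraries sat between 41184 and 42877 CPM, above 9896 to 11009 CPM in E0771, while Kcnmb1, Des and Ppp1r14a were higher in E0771.

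Sarcomere genes under wild type were higher in AT-3 at about the share of all genes. Of 43 tested of 54 listed, 19 were higher in AT-3 (44.2%, against 45.3% of all genes), 7 in E0771 (16.3%, against 34.5%) and 17 were not called, while 11 were too low to test, with a median log2 difference of 0.71. Under empty vector 9 were higher in AT-3 (20.9%, against 36.8% of all genes) and 22 in E0771 (51.2%, against 35.2%), with a median of -1.63. The difference between the gaps was called toward AT-3 in 22 (51.2%, against 24.0% of all genes) and toward E0771 in 6 (14.0%, against 23.3%). Of the gaps, 12 closed (27.9%, against 5.80% of all genes), while 4 opened (9.30%, against 8.86%) and 4 reversed (9.30%, against 5.74%). A mean of at least 1 CPM was reached under empty vector by only 13 of the 43 in AT-3 and 11 in E0771. Under wild type it was reached by 27 and 22. The empty vector gaps of many of these genes, and their changes of gap, therefore rest on values near the floor. Lmod3, a leiomodin of thin filaments, stood at 26.8, 18.5 and 19.6 CPM in AT-3 and 0.126, 0.143 and 0.0476 CPM in E0771 (7.62 ± 0.41), opened from near 0 in both lines. Myh6, the atrial myosin heavy chain, was at 44.2, 33.5 and 36.2 CPM in AT-3 and 2.03, 1.81 and 1.95 CPM in E0771 (4.30 ± 0.30), reversed from -3.09 under empty vector, when both lines were below 1 CPM. Myh7, the slow myosin heavy chain, stayed low at 0.617 ± 0.19 CPM in AT-3 and 0.0834 ± 0.0205 CPM in E0771 (2.88 ± 0.90). Nebl, nebulette of the Z-disc, was at 2.18 ± 0.266 CPM in AT-3 and 0.292 ± 0.0419 CPM in E0771, with 0 counts in E0771 under empty vector.

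Fhl2, a LIM coactivator of muscle, was at 276, 289 and 286 CPM in AT-3 and 135, 127 and 125 CPM in E0771 (1.14 ± 0.07), and cardiac troponin T, Tnnt2, at 6.45, 7.97 and 7.11 CPM in AT-3 and 1.68, 1.93 and 1.38 CPM in E0771 (2.10 ± 0.15). The Tnnt2 gap was narrower than under empty vector (difference between the gaps -1.71 ± 0.22). Cryab, a small heat shock protein, was higher in E0771 at 11.7, 11.2 and 11.6 CPM in AT-3 and 36.6, 35.6 and 37.7 CPM in E0771 (-1.67 ± 0.08), as was Myl7, the atrial light chain, at 0.233, 0.254 and 0.248 CPM in AT-3 and 8.24, 7.16 and 6.69 CPM in E0771 (-4.91 ± 0.40). Both groups of Myl7 lay above their empty vector means of 0.00386 ± 0.00668 CPM in AT-3 and 0.174 ± 0.103 CPM in E0771. Cardiac factors separated the lines under both constructs: Nkx2-5 was at 106, 111 and 104 CPM in AT-3 and 0.233, 0.835 and 0.238 CPM in E0771 and Gata4 at 29.7, 29.7 and 29.1 CPM in AT-3 and 0.0538, 0.0408 and 0 CPM in E0771. Without E0771 replicate 2, the Nkx2-5 difference was 8.82 against 7.93 with it. The Gata4 difference was 9.71, and 10.31 without E0771 replicate 1. The 8 skeletal and cardiac markers summed to 133 to 140.3 CPM in AT-3 and 0.238 to 0.876 CPM in E0771, and only these 2 were high enough to test.

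**Figure D3:**
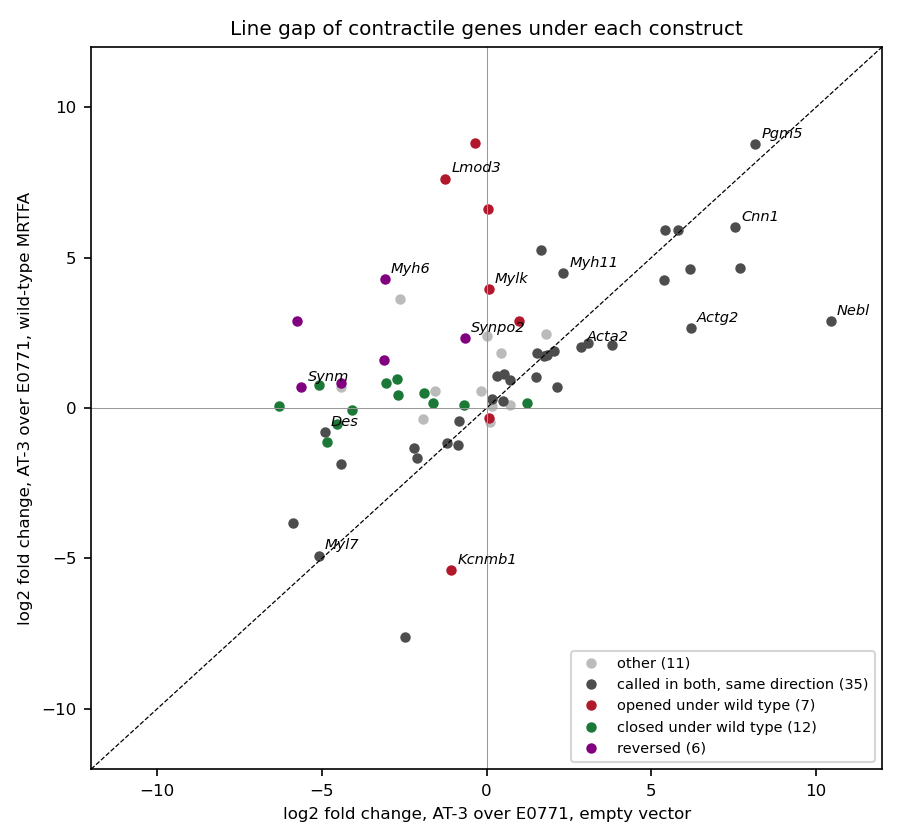
Log2 difference of AT-3 over E0771 under empty vector (x axis) and wild-type MRTFA (y axis) for the 71 contractile genes tested, 1 point per gene, coloured by class, with the dashed line marking equal gaps. Of the 71, 35 were called in both in the same direction, 12 closed, 7 opened and 6 reversed. The shares of these classes over all genes were 57.0%, 5.80%, 8.86% and 5.74%. Lmod3 and Mylk lie on the AT-3 side while Kcnmb1 lies on the E0771 side.

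Non-muscle actomyosin and actin regulators split with more exceptions: 28 of 40 were higher in AT-3 (70.0%, against 45.3% of all genes) and 11 in E0771 (27.5%, against 34.5%). Their median was 0.52, against 0.50 under empty vector, where 23 were higher in AT-3 and 14 in E0771. Cfl2, muscle cofilin that severs filaments, was at 329, 345 and 331 CPM in AT-3 and 44, 40.1 and 37.9 CPM in E0771 (3.04 ± 0.07), and Myl12a, a regulatory light chain, at 2455, 2676 and 2604 CPM in AT-3 and 603, 597 and 570.0 CPM in E0771 (2.13 ± 0.05). Gsn, gelsolin, which caps and severs actin, was at 1102, 1037 and 996 CPM in AT-3 and 478, 472 and 459 CPM in E0771 (1.15 ± 0.06), a reversal from -0.53 ± 0.06 under empty vector. Myh14, a non-muscle myosin heavy chain, was at 6.24, 3.38 and 4.5 CPM in AT-3 and 0.484, 0.591 and 0.5 CPM in E0771 (3.16 ± 0.35), opened from -1.01. Tuft1, a tuftelin, reversed to 1.23 ± 0.09. Capg, a capping protein, was higher in E0771 at 69.6, 72.7 and 75 CPM in AT-3 and 274, 273 and 257 CPM in E0771 (-1.89 ± 0.04), as was the LIM protein Pdlim1 at 0.659, 0.576 and 0.349 CPM in AT-3 and 63.1, 68.6 and 66.1 CPM in E0771 (-6.95 ± 0.15). The gap of both was wider than under empty vector (differences between the gaps -0.97 ± 0.06 and -1.32 ± 0.21).

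Adhesion genes leaned to AT-3: 32 of 43 integrin and focal adhesion genes were higher there (74.4%, against 45.3% of all genes) and 8 in E0771 (18.6%, against 34.5%). Their median was 0.90, against 0.71 under empty vector, where 25 were higher in AT-3 and 11 in E0771. Vcl, vinculin, which links integrins to actin, was at 1217, 1194 and 1170.1 CPM in AT-3 and 431, 416 and 410.0 CPM in E0771 (1.51 ± 0.04), and Itgav, the alpha subunit of the vitronectin receptor, at 644, 554 and 534 CPM in AT-3 and 92.1, 94.9 and 90.4 CPM in E0771 (2.64 ± 0.06). Itga7, a laminin-binding integrin of muscle, was at 106, 105 and 104 CPM in AT-3 and 15.1, 16 and 15.3 CPM in E0771 (2.76 ± 0.08), narrower than under empty vector. Tln2, talin, and Tns1, tensin, were reversed: Tln2 was at 457 ± 11.5 CPM in AT-3 and 159 ± 3.65 CPM in E0771 (1.52 ± 0.05) with -1.08 ± 0.05 under empty vector, and Tns1 at 259.7 ± 12.3 CPM in AT-3 and 92.5 ± 3.31 CPM in E0771 (1.49 ± 0.07) with -1.75 ± 0.08. Itgb4, the hemidesmosome integrin, was at 18.4, 11.9 and 13.3 CPM in AT-3 and 6.4, 6.73 and 6.03 CPM in E0771 (1.19 ± 0.16) with -3.35 ± 0.19 under empty vector. Cavin1, a coat protein of caveolae, was among the 8 higher in E0771, at 127, 122 and 116 CPM in AT-3 and 1057, 1041 and 1014 CPM in E0771 (-3.09 ± 0.08).

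YAP and TEAD targets were higher in AT-3 in 18 of 24 (75.0%, against 45.3% of all genes). In E0771 5 were higher (20.8%, against 34.5%). Their median was 0.68, against 1.07 under empty vector. Under empty vector 20 were higher in AT-3 (83.3%, against 36.8% of all genes) and 2 in E0771 (8.33%, against 35.2%). The gap moved toward E0771 in 11 (45.8%, against 23.3% of all genes) and toward AT-3 in 6, near the 24.0% of all genes. Ankrd1, a stretch-responsive target of YAP, was at 484, 596 and 554 CPM in AT-3 and 23.8, 24.1 and 18.4 CPM in E0771 (4.62 ± 0.40). Amotl1, a regulator that holds YAP, was at 723, 677 and 656 CPM in AT-3 and 150.5, 155 and 148 CPM in E0771 (2.18 ± 0.05), and Crim1 at 377, 411 and 414 CPM in AT-3 and 83.7, 84.4 and 78.2 CPM in E0771 (2.29 ± 0.06). The coactivators themselves differed in opposite directions: Wwtr1, which encodes TAZ, was at 420.0, 393 and 374 CPM in AT-3 and 112, 113 and 111 CPM in E0771 (1.82 ± 0.04) and Yap1 at 241, 249.9 and 255 CPM in AT-3 and 769, 821 and 818 CPM in E0771 (-1.69 ± 0.05). Nuak2, a kinase, was at 12.7 ± 1.5 CPM in AT-3 and 17 ± 1.66 CPM in E0771 (-0.42 ± 0.11), reversed from 0.95 ± 0.11 under empty vector.

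Immediate early genes, which respond within the first hour to SRF and its partner factors, were mostly higher in AT-3. Of 27 tested, 21 were higher there (77.8%, against 45.3% of all genes) and 3 in E0771 (11.1%, against 34.5%). Their median was 1.67 against 0.83 under empty vector. The E0771 count was 5 without AT-3 replicate 3. The difference between gaps was called toward AT-3 in 15 (55.6%, against 24.0% of all genes) and toward E0771 in 3 (11.1%, against 23.3%). Maff, a small Maf factor, was at 183, 179.9 and 175 CPM in AT-3 and 18.8, 19.7 and 17.1 CPM in E0771 (3.27 ± 0.10), and the orphan receptor Nr4a1 at 129, 105 and 102 CPM in AT-3 and 13.8, 12.1 and 10.6 CPM in E0771 (3.19 ± 0.13). Nr4a3 stood at 84.5, 55.3 and 54.6 CPM in AT-3 and 3.25, 2.75 and 3.07 CPM in E0771 (4.42 ± 0.18), a gap wider than under empty vector (difference between the gaps 2.66 ± 0.27). Ier2 (204 ± 10.3 CPM in AT-3 and 53.3 ± 1.1 CPM in E0771, 1.94 ± 0.05) and the AP-1 subunit Junb (308 ± 14.5 CPM in AT-3 and 87.6 ± 5.68 CPM in E0771, 1.81 ± 0.05) were also higher in AT-3. Atf3, a stress factor, was at 56.5, 54.6 and 48.8 CPM in AT-3 and 20.7, 19.8 and 23.5 CPM in E0771 (1.32 ± 0.22), reversed from -1.51 ± 0.23. Dusp2, a MAP kinase phosphatase, met at 23.1, 18.6 and 24 CPM in AT-3 and 24, 21.9 and 18.5 CPM in E0771, overlapping, where empty vector held 0.17 ± 0.0985 CPM in AT-3 and 16.4 ± 2.33 CPM in E0771. Its gap had closed, with 0.03 ± 0.17 under wild type (adjusted p = 0.895), a sign that turned with library totals (-0.19) and without AT-3 replicate 1 (-0.017), AT-3 replicate 3 (-0.16) or E0771 replicate 3 (-0.069).

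**Figure D4:**
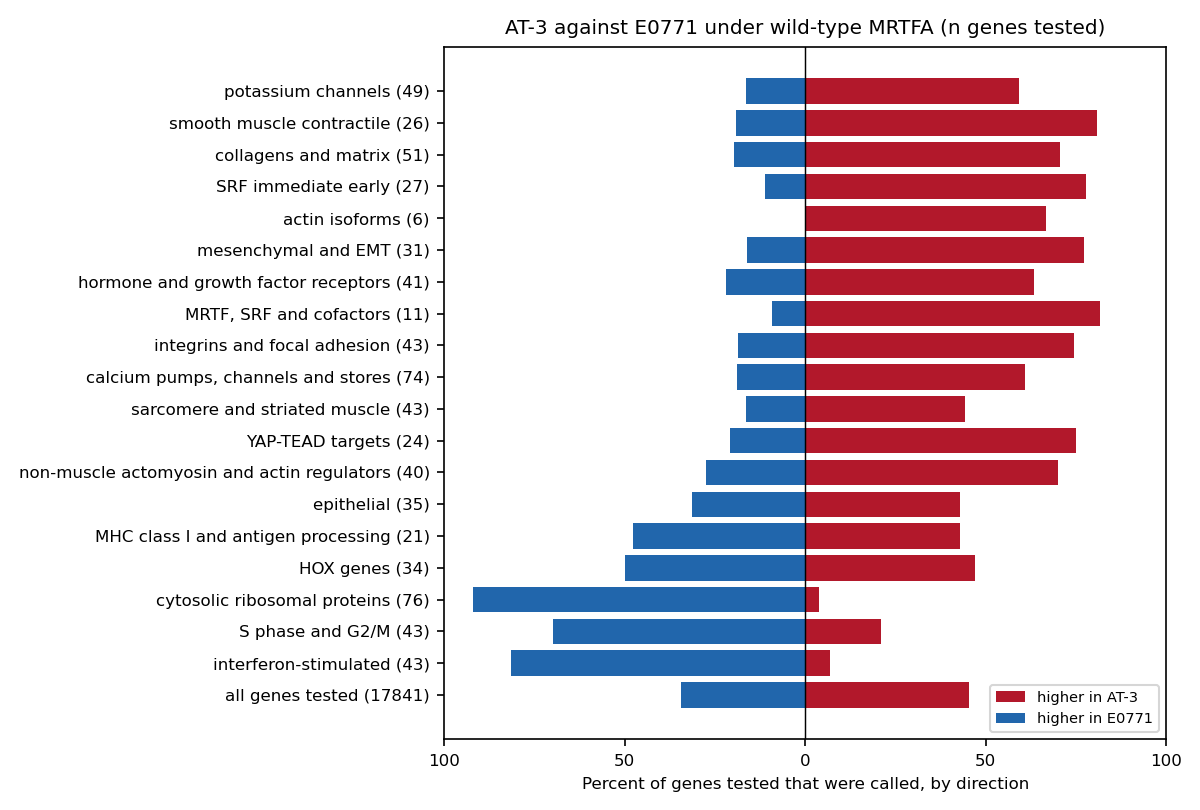
Percent of genes tested in each list that were called higher in AT-3 (right, red) or in E0771 (left, blue) under wild-type MRTFA, with the list's genes tested in brackets and all genes tested in the bottom row. Smooth muscle genes reached 80.8% toward AT-3, and ribosomal protein genes 92.1% toward E0771, against 45.3% and 34.5% of all genes.

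Calcium and potassium handling genes were listed because the series title names both ions. Calcium handling genes were higher in AT-3 in 45 of 74 (60.8%, against 45.3% of all genes) and in E0771 in 14 (18.9%, against 34.5%). The median was 0.79, against 0.06 under empty vector, where 30 were higher in AT-3 and 21 in E0771. Orai1, the pore of store-operated entry, was at 72.2, 67.1 and 65.5 CPM in AT-3 and 14.4, 12.6 and 13.6 CPM in E0771 (2.33 ± 0.07), a gap wider than under empty vector (difference between the gaps 1.39 ± 0.10). Saraf, which turns that entry off, was at 252, 245 and 237 CPM in AT-3 and 109, 112 and 113 CPM in E0771 (1.13 ± 0.06) and opened from 0.01 ± 0.05. Slc24a1, a sodium, calcium and potassium exchanger, was at 55.1, 52.7 and 54.1 CPM in AT-3 and 0.287, 0.428 and 0.214 CPM in E0771, with a log2 difference of 7.43 ± 0.48 and, under empty vector, 0 counts in AT-3 and 0.0592 ± 0.0676 CPM in E0771. Atp2b3, a plasma membrane calcium pump, was at 6.4, 5.13 and 5.46 CPM in AT-3 and 1.7, 1.4 and 1.27 CPM in E0771 (1.96 ± 0.38), with 0 counts in AT-3 under empty vector. Pkd2, a channel of cilia and stores, was at 107 ± 2.59 CPM in AT-3 and 32.4 ± 1.11 CPM in E0771 (1.73 ± 0.05). Itpr3, an IP3 receptor of stores, was higher in E0771, at 83.2, 93.1 and 93.8 CPM in AT-3 and 165, 181 and 180.5 CPM in E0771 (-0.96 ± 0.05), reversed from 0.27 ± 0.05.

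Potassium channels were higher in AT-3 in 29 of 49 (59.2%, against 45.3% of all genes) and in E0771 in 8 (16.3%, against 34.5%). The median was 1.87 against 0.28 under empty vector, yet the summed level went the other way, 107 to 111 CPM in AT-3 and 384 to 386 CPM in E0771. The stricter filter on low counts, which tests fewer genes, left 13 higher in AT-3 with a median of 1.39, and no filter gave a median of 2.60. Kcnn4, the intermediate-conductance calcium-activated channel, was at 4.83, 4.45 and 4.64 CPM in AT-3 and 94.3, 97.5 and 96.5 CPM in E0771 (-4.37 ± 0.07), and Kcnh2, a delayed rectifier, at 5.2, 4.38 and 4.39 CPM in AT-3 and 53.2, 48.9 and 50.004 CPM in E0771 (-3.44 ± 0.11). Both were higher in E0771 in every library. Kcnf1, a silent modifier subunit, was at 13.4, 14.9 and 13.7 CPM in AT-3 and 0.0897, 0.0611 and 0.0714 CPM in E0771 (7.53 ± 0.30), and Kcnk3, a leak channel, at 3.28, 2.89 and 3.15 CPM in AT-3 and 0.0538, 0.0509 and 0 CPM in E0771 (6.35 ± 0.69), opened from near 0 in both lines.

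Epithelial genes split near the shares of all genes: 15 of 35 were higher in AT-3 (42.9%) and 11 in E0771 (31.4%), with a median of 0.29 whose sign turned with a stricter filter on low counts (-0.78, with 7 higher in AT-3). Without E0771 replicate 1 that median was 0.72, and it ran down to 0.22 with other libraries left out. Krt19, a luminal keratin, was at 33.6 ± 2.05 CPM in AT-3 and 0.112 ± 0.0851 CPM in E0771 (8.25 ± 0.21, and 9.06 without E0771 replicate 2), and Krt8 went the other way (-5.96 ± 0.13). Mesenchymal genes were higher in AT-3 in 24 of 31 (77.4%, against 45.3% of all genes) and in E0771 in 5 (16.1%, against 34.5%). Their median was 1.05 against 1.77 under empty vector. The gap moved toward E0771 in 14 (45.2%, against 23.3% of all genes) and toward AT-3 in 6 (19.4%, against 24.0%). Mmp14, a membrane protease, was at 1155, 1207 and 1154 CPM in AT-3 and 267, 253 and 242 CPM in E0771 (2.21 ± 0.05). Vim, vimentin, was higher in E0771 at 639, 835 and 831 CPM in AT-3 and 3410.1, 3617 and 3538 CPM in E0771 (-2.20 ± 0.07), as were the crosslinking oxidase Loxl2 at 4.93 ± 0.52 CPM in AT-3 and 198 ± 4.61 CPM in E0771 (-5.33 ± 0.11) and the homeobox factor Prrx1 at 0.0789 ± 0.0105 CPM in AT-3 and 39.983 ± 0.902 CPM in E0771 (-8.96 ± 0.28). Mmp2, a gelatinase, was at 25.3 ± 1.48 CPM in AT-3 and 39 ± 0.879 CPM in E0771 (-0.63 ± 0.11), reversed from 1.58 ± 0.11. Mcam, an adhesion protein of pericytes, was at 1665, 1571 and 1515 CPM in AT-3 and 72.6, 70.8 and 60.7 CPM in E0771 (4.54 ± 0.24).

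Matrix genes were higher in AT-3 in 36 of 51 (70.6%, against 45.3% of all genes) and in E0771 in 10 (19.6%, against 34.5%). Their median was 1.70 against 2.43 under empty vector. Nid1, nidogen, and Lamb1, a laminin chain of basement membranes, were at 1737 ± 93.3 CPM in AT-3 and 362 ± 4.16 CPM in E0771 (2.26 ± 0.06) and 803 ± 12.7 CPM in AT-3 and 87.1 ± 4.99 CPM in E0771 (3.20 ± 0.08). The fibrillar collagen genes Col1a1 and Col3a1 were among the 10 higher in E0771, Col1a1 at 3.43, 3.83 and 2.84 CPM in AT-3 and 79.3, 70.7 and 80.5 CPM in E0771 (-4.51 ± 0.11) and Col3a1 at 21.7, 23.7 and 20.7 CPM in AT-3 and 715, 689 and 695 CPM in E0771 (-4.99 ± 0.15). Col5a3 and the laminin chain Lama5 were also higher in E0771 (-2.81 ± 0.06 and -3.12 ± 0.08). Col18a1, of basement membranes, was at 216, 189.7 and 186 CPM in AT-3 and 119, 124 and 122 CPM in E0771 (0.70 ± 0.06), reversed from -3.05 ± 0.07.

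Homeobox genes of the HOX clusters, which hold the positional identity of a cell, were split, 16 of 34 higher in AT-3 (47.1%, near the 45.3% of all genes) and 17 in E0771 (50%, against 34.5%). Under both constructs 29 kept their direction (85.3%, against 57.0% of all genes). Hoxd8 was at 0.0775, 0 and 0.0676 CPM in AT-3 and 18.7, 18.8 and 18.2 CPM in E0771 (-8.50 ± 0.25) and Hoxa3 at 8.27, 6.92 and 7.38 CPM in AT-3 and 0.251, 0.183 and 0.119 CPM in E0771 (5.30 ± 0.31). Of 41 hormone and growth factor receptors, 26 were higher in AT-3 (63.4%, against 45.3% of all genes) and 9 in E0771 (22.0%, against 34.5%). Their median was 0.99 against 1.44 under empty vector. Acvr1, a BMP type I receptor, was at 157, 157 and 162 CPM in AT-3 and 17.4, 19 and 17.5 CPM in E0771 (3.14 ± 0.06), and Igf2r, the IGF2 scavenger, at 135 ± 8.09 CPM in AT-3 and 10.6 ± 0.174 CPM in E0771 (3.67 ± 0.07). Met, the hepatocyte growth factor receptor, was higher in E0771, at 15.4, 17.9 and 17.8 CPM in AT-3 and 133, 154 and 153 CPM in E0771 (-3.11 ± 0.07), and Fgfr3 reversed to E0771, at 8.51 ± 0.409 CPM in AT-3 and 15.3 ± 0.67 CPM in E0771 (-0.84 ± 0.12).

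Interferon-stimulated genes were higher in E0771, 35 of 43 (81.4%, against 34.5% of all genes), with 3 higher in AT-3 (6.98%, against 45.3%) and a median of -2.61. Under empty vector the count was 28 and 9 with a median of -1.02, and under Y238A the median was -0.94. The difference between the gaps was called toward E0771 in 32 (74.4%, against 23.3% of all genes) and toward AT-3 in 0 (against 24.0%). Of the 43 tested, 22 had a gap kept in the same direction and wider, against 17.2% of all genes tested. The summed level was 260.4 to 270.4 CPM in AT-3, against 496 to 527 CPM under empty vector, and 762 to 853 CPM in E0771, against 748 to 829 CPM. Bst2, tetherin, stood at 3.48, 3.86 and 3.24 CPM in AT-3 and 118, 133 and 130.1 CPM in E0771 (-5.17 ± 0.13), and the antiviral ligase Trim25 at 21.5, 21.5 and 20.4 CPM in AT-3 and 96.9, 104 and 109.8 CPM in E0771 (-2.29 ± 0.06). Gbp7, a guanylate-binding protein, was at 0.475, 0.277 and 0.304 CPM in AT-3 and 9.1, 10.9 and 11.5 CPM in E0771 (-4.87 ± 0.24), from 3.73 ± 0.461 CPM in AT-3 and 7.56 ± 0.707 CPM in E0771 under empty vector. Rsad2, viperin, was at 0.0194, 0.115 and 0 CPM in AT-3 and 25.2, 23.4 and 24.4 CPM in E0771, near absent in AT-3 under both constructs.

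MHC class I genes split, 9 of 21 higher in AT-3 (42.9%, near the 45.3% of all genes) and 10 in E0771 (47.6%, against 34.5%), with a median of -0.17 that lies within the shift between scalings. B2m, the light chain, was at 1226, 1255 and 1228 CPM in AT-3 and 559, 555 and 550.0 CPM in E0771 (1.16 ± 0.03), and Tapbp, tapasin, at 429.9 ± 18.5 CPM in AT-3 and 108 ± 2.93 CPM in E0771 (2.00 ± 0.07). H2-D1, a classical heavy chain, was higher in E0771 at 228, 235 and 242 CPM in AT-3 and 658, 663 and 665 CPM in E0771 (-1.49 ± 0.04).

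Cell cycle genes were higher in E0771 in 30 of 43 (69.8%, against 34.5% of all genes) and in AT-3 in 9 (20.9%, against 45.3%). Their median was -0.80 against -0.24 under empty vector. At 2-fold or more the counts were 17 in E0771 and 1 in AT-3, where 18.4% and 31.0% of all genes were called. The gap moved toward E0771 in 32 (74.4%, against 23.3% of all genes) and toward AT-3 in 2 (4.65%, against 24.0%). Cdt1, a licensing factor of replication, was at 38.4, 39.6 and 40.5 CPM in AT-3 and 229, 223 and 206 CPM in E0771 (-2.47 ± 0.06), and Uhrf1, which keeps DNA methylation through replication, at 84.6, 107 and 110.3 CPM in AT-3 and 304, 317 and 308 CPM in E0771 (-1.62 ± 0.07). Cenpf, of the kinetochore, was at 77 ± 3.73 CPM in AT-3 and 203 ± 16.3 CPM in E0771 (-1.40 ± 0.06). Ccnb2, a mitotic cyclin, and Bub1b, a spindle checkpoint kinase, reversed, Ccnb2 to -1.24 ± 0.09 from 0.21 ± 0.09 and Bub1b to -0.75 ± 0.09 from 0.57 ± 0.09. AT-3 held 70.6 ± 8.43 CPM of Bub1b, from 199 ± 5.45 under empty vector, and E0771 held 118 ± 6.82 and 134 ± 5.24 CPM.

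Cytosolic ribosomal protein genes were higher in E0771 in 70 of 76 (92.1%, against 34.5% of all genes) and in AT-3 in 3 (3.95%, against 45.3%). Their median was -0.63 against -0.04 under empty vector, and -0.84 with library totals. Under Y238A 69 were higher in E0771 and 2 in AT-3, with a median of -0.62. The AT-3 count was 1 without AT-3 replicate 2, AT-3 replicate 3, E0771 replicate 2 or E0771 replicate 3. At 2-fold or more 14 of the 76 stayed higher in E0771, near the 18.4% of all genes that did. None, 0, stayed higher in AT-3, against 31.0% of all genes. These genes have many processed pseudogenes, which can take reads. The gap moved toward E0771 in 73 of 76 (96.1%, against 23.3% of all genes) and toward AT-3 in 0 (against 24.0%). The summed level was 30314 to 35357 CPM in AT-3 and 51071 to 52119 CPM in E0771, against 53348 to 53675 and 54496 to 57793 CPM under empty vector. Rpl13 was at 475, 552 and 556 CPM in AT-3 and 1993, 1955 and 1914 CPM in E0771 (-1.89 ± 0.05), and Rps12 opened to -0.81 ± 0.06 from 0.06 ± 0.06. AT-3 replicate 1 was the lowest of AT-3 for both.

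**Figure D5:**
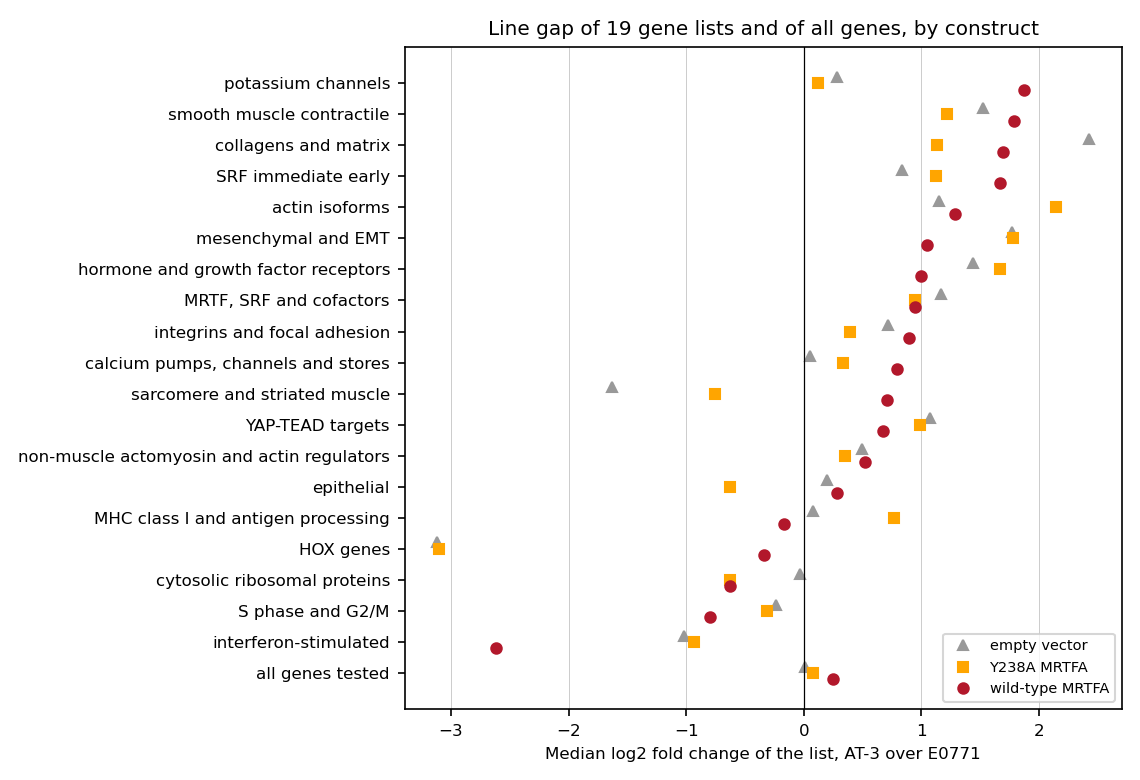
Median log2 difference of AT-3 over E0771 in each list (x axis) under empty vector (triangles), Y238A (squares) and wild-type MRTFA (circles), with all genes tested in the bottom row. The interferon list lay at -1.02, -0.94 and -2.61, and the sarcomere list at -1.63, -0.75 and 0.71. Most sarcomere genes were below 1 CPM under empty vector.

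Gaps that opened, closed or reversed outside the lists involved single genes of many kinds. Heph, a copper ferroxidase, was at 88.1, 96.8 and 103 CPM in AT-3 and 0.664, 1.2 and 0.309 CPM in E0771 (7.02 ± 0.55), reversed from -8.66 under empty vector, when E0771 held 0.532 ± 0.14 CPM and AT-3 none. Shank3, a synaptic scaffold, was at 51.8, 47.7 and 40.5 CPM in AT-3 and 10.8, 10.1 and 9.64 CPM in E0771 (2.20 ± 0.22), and Nptx1, a neuronal pentraxin, at 139.5, 96.7 and 102 CPM in AT-3 and 17.3, 17.2 and 16.1 CPM in E0771 (2.74 ± 0.28), both from below 1 CPM in AT-3 with empty vector. In the other direction Synpo, a podocyte actin regulator, was at 8.96, 7.44 and 8.41 CPM in AT-3 and 33.5, 33 and 35.7 CPM in E0771 (-2.04 ± 0.12), reversed from 1.38 ± 0.11. The surface antigens Ly6a and Ly6c1 were higher in E0771: Ly6a was at 1.16, 1.38 and 1.46 CPM in AT-3 and 12.9, 13 and 12.8 CPM in E0771 (-3.28 ± 0.09), opened from 0.15, and Ly6c1 at 1.25 ± 0.339 CPM in AT-3 and 6.33 ± 0.208 CPM in E0771 (-2.32 ± 0.13), reversed from 0.69. Cebpb, a leucine zipper factor of inflammation, was at 19.8, 16.1 and 25.1 CPM in AT-3 and 137, 115 and 105 CPM in E0771 (-2.55 ± 0.22), opened from -0.16. Vdr, the vitamin D receptor, met at 13.8, 14.6 and 13.4 CPM in AT-3 and 14.7, 17.1 and 16.8 CPM in E0771, from 210.0 ± 5.38 CPM in AT-3 and 33.7 ± 3.44 CPM in E0771 under empty vector. Its log2 difference of -0.22 ± 0.13 was not called (adjusted p = 0.152), and it was called with library totals (adjusted p = 0.00672), with only the wild-type groups (0.00228) and without E0771 Y238A replicate 2 (0.00606).

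Some gaps kept their side and changed in size. Apold1, an endothelial apolipoprotein-domain protein, was at 0.746, 0.761 and 1.09 CPM in AT-3 and 85.2, 79.1 and 84 CPM in E0771 (-6.58 ± 0.14), wider than under empty vector (difference between the gaps -3.34 ± 0.19), and the scavenging chemokine receptor Ackr3 was at 0.0194, 0.0461 and 0.0225 CPM in AT-3 and 9.28, 11 and 11.9 CPM in E0771 (-8.48 ± 0.28), wider than under empty vector (difference between the gaps -3.80 ± 0.44). Gnaz, a G protein subunit, was at 13.2, 10.2 and 9.38 CPM in AT-3 and 0.61, 0.438 and 0.619 CPM in E0771 (4.30 ± 0.23), and the kinase Tnik at 22.7, 21.6 and 20.8 CPM in AT-3 and 3.1, 2.97 and 2.31 CPM in E0771 (2.95 ± 0.20), both narrower than under empty vector, where E0771 held 0 counts of Gnaz and 0.00642 ± 0.0111 CPM of Tnik. Trim54, a muscle ring finger protein, was at 1.03, 0.484 and 0.529 CPM in AT-3 and 19.8, 20.8 and 19.8 CPM in E0771 (-4.86 ± 0.21), and Elfn2, a neuronal surface protein, at 0.262, 0.334 and 0.36 CPM in AT-3 and 15.6, 14.2 and 15.5 CPM in E0771 (-5.57 ± 0.14), both narrower from 0 counts in AT-3 under empty vector. For genes at 0 in a group the fitted differences depend on the prior count and are no bound.

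With Y238A the lines differed in 13305 genes (74.6%), 6984 higher in AT-3 (39.1%) and 6321 higher in E0771 (35.4%). Under Y238A the smooth muscle list held 17 genes higher in AT-3 and 8 in E0771, with a median of 1.21, and the sarcomere list had a median of -0.75. The difference between the Y238A and wild-type gaps was not tested.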

How the data were processed

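RNA of 18 libraries (2 lines, 3 constructs, 3 libraries each) was sequenced, and the authors deposited raw gene counts. Reads were aligned with STAR and counted with featureCounts on GRCm38, per the submitters' processing notes; versions, strand setting and any pair setting were not given in the sources used here. The table held 32286 entries, including a construct entry named MRTFA whose sequence was not given in the sources used here.

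From the deposited counts, 17841 genes passed edgeR's filter (at least 10 counts in enough libraries and 15 in all) and were tested with edgeR 4.0.16 (R 4.3.3), TMM scaling, 6 group means over the 18 libraries and the robust quasi-likelihood test with Benjamini-Hochberg adjustment at 0.05. Differences are log2 of AT-3 over E0771 ± SE, n = 3 per group. The SE is the absolute log2 difference divided by the square root of the F statistic. It rests on the spread within all 6 groups of the 18 libraries (12 residual degrees of freedom), not on the compared libraries alone. Levels are CPM ± SD. A gap was called kept, opened, closed or reversed from the calls under wild type and empty vector and on their difference. Alternatives were DESeq2 1.42.0, its size factors, library totals, other filters, a 2-fold threshold, only the groups compared, a replicate block and each library left out; leaving out the libraries of highest carry-over was added after seeing the data.

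The 19 gene lists and 8 marker lists, and the comparison itself, were chosen with earlier results of these data known. Named genes are the construct, Mrtfa, Mrtfb and Srf, all actin and smooth muscle genes, the 10 largest differences per direction at 10 CPM or more, up to 6 members of each other list by smallest p and up to 4 by change of gap, and up to 5 per class of gap; fewer are named for room. Most genes whose call turned with a left-out library were passed over, and the marker genes were named after their values were seen. Scripts were tested on simulated counts.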

Additional observations from a re-analysis of the deposited data

Results flagged for a closer look

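Of the 141 genes examined singly, 112 had a line gap that differed between wild-type MRTFA and empty vector by the interaction test of edgeR, 61 toward AT-3 and 51 toward E0771, against 47.3% of all genes. The values are the gap under wild type minus the gap under empty vector on the log2 scale, and those of genes at or near 0 counts in a group depend on the prior count. Many genes were chosen for their change of gap, so the share is no finding.

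Among machinery of MRTF and SRF, the gap moved toward AT-3 in MRTFA (5.0), Srf (0.44), Myocd (8.33), Elk1 (1.03) and Phf8 (1.84). The move was toward E0771 in Mrtfa (-0.47), Mrtfb (-0.73) and Filip1l (-1.43). Of actin and smooth muscle genes, those with a gap moved toward AT-3 were Des (4.12), Synpo2 (3.0), Tpm2 (0.75), Ppp1r14a (2.06), Synm (6.32), Myl6 (0.29) and Mylk (3.87). Toward E0771 moved Acta2 (-0.83), Actg2 (-3.53), Actb (-0.28), Myl9 (-0.91), Cald1 (-0.49), Cnn2 (-1.42), Smtn (-0.38) and Kcnmb1 (-4.33). In the sarcomere genes, a move toward AT-3 was called for Cryab (0.44), Lmod3 (8.87), Fhl2 (0.6), Myh6 (7.39) and Myh7 (8.65). A move toward E0771 was called for Tnnt2 (-1.71) and Nebl (-7.54). A move toward AT-3 in actin regulators was that of Cfl2 (1.0), Vcl (0.15), Myh14 (4.17), Gsn (1.69) and Tuft1 (2.08). The move was toward E0771 in Capg (-0.97) and Pdlim1 (-1.32). Among immediate early genes, the gap moved toward AT-3 in Ier2 (1.13), Junb (0.47), Maff (1.85), Nr4a3 (2.66), Nr4a1 (2.87), Dusp2 (6.62) and Atf3 (2.83). Of adhesion genes, those with a gap moved toward AT-3 were Itgav (0.36), Tln2 (2.6), Cavin1 (2.06), Itgb4 (4.54) and Tns1 (3.24). A move toward E0771 was called for Itga7 (-1.09). In the YAP genes, a move toward AT-3 was called for Wwtr1 (0.59), Amotl1 (1.54) and Yap1 (0.35). The move was toward E0771 in Crim1 (-1.31), Ankrd1 (-1.54) and Nuak2 (-1.37). A move toward AT-3 in calcium and potassium genes was that of Orai1 (1.39), Saraf (1.13), Slc24a1 (12.97), Atp2b3 (10.03), Kcnh2 (3.35) and Kcnk3 (8.68).

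Toward E0771 moved Pkd2 (-0.98), Itpr3 (-1.24) and Kcnn4 (-1.52). Among epithelial and mesenchymal genes, the gap moved toward AT-3 in Krt8 (6.45), Mmp14 (0.43) and Loxl2 (1.67). A move toward E0771 was called for Vim (-1.51) and Mmp2 (-2.21). Of matrix genes, those with a gap moved toward AT-3 were Col1a1 (0.68) and Col18a1 (3.75). The move was toward E0771 in Col5a3 (-0.64), Nid1 (-0.33), Lamb1 (-0.85) and Lama5 (-0.83). In the HOX genes and receptors, a move toward AT-3 was called for Hoxd8 (5.6) and Acvr1 (0.74). Toward E0771 moved Met (-1.64) and Fgfr3 (-2.31). A move toward AT-3 in interferon and MHC class I genes was that of H2-D1 (0.31), B2m (0.76) and Tapbp (0.47). A move toward E0771 was called for Trim25 (-1.06), Bst2 (-0.65) and Gbp7 (-3.85). Among cell cycle and ribosomal protein genes, the gap moved toward E0771 in Cdt1 (-0.42), Cenpf (-0.73), Uhrf1 (-1.24), Ccnb2 (-1.44), Bub1b (-1.32), Rpl13 (-0.65) and Rps12 (-0.87). Of genes of the largest line differences and changes of gap, those with a gap moved toward AT-3 were Usp53 (7.48), Heph (15.68), Shank3 (9.06), Nptx1 (9.05), Trim54 (8.84) and Elfn2 (8.65). Toward E0771 moved Phox2a (-5.43), Vdr (-2.86), Synpo (-3.42), Ly6c1 (-3.01), Ly6a (-3.43), Cebpb (-2.39), Apold1 (-3.34), Ackr3 (-3.8), Gnaz (-7.2) and Tnik (-5.57). In the marker genes, a move toward AT-3 was called for Cd68 (2.97) and Gata4 (2.63). A move toward E0771 was called for Mcam (-0.86).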

How the results depend on the processing

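Of the counts and list medians, all 69 kept their direction and stayed close to the reported value with the replicate number as a block, which gave 8055 and 6170 wild-type calls and 4273 and 4229 calls on the difference between gaps. Same-numbered AT-3 and E0771 libraries with wild-type MRTFA did not deviate together (correlations of their deviations 0.015, -0.025 and 0.039). Over all 6 groups the same-number correlations ran from -0.418 to 0.419 for number 1, from -0.100 to 0.694 for number 2 and from 0.0030 to 0.503 for number 3, so some pairs deviated together and not every pair did, and the samples were treated as unpaired. DESeq2 called 8018 and 6032 genes, and no filter 8329 and 6161.

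Medians that moved by more than a replicate SD, mostly with the scaling, were those of smooth muscle (1.82 with DESeq2 and with its size factors, 1.57 with library totals, 1.75 with the stricter filter, 1.65 with only the groups compared, 1.66 to 1.82 with a library left out), actins (1.07 with library totals, 1.15 with only the groups compared, 1.17 to 1.37), non-muscle actomyosin (0.31, 0.39 and 0.40 to 0.54 likewise), immediate early genes (1.45 and 1.54), integrins (0.93 with DESeq2 and its size factors, 0.68, 0.76, 1.01 with no filter, 0.80 to 0.91) and YAP targets (0.46, 0.54, 0.58 to 0.70). With library totals the medians were 0.73 for MRTF cofactors, 0.58 for calcium, 0.78 for receptors, -0.38 for MHC class I, -1.01 for the cell cycle and -0.84 for ribosomal proteins. With a library left out, calcium ran from 0.62 to 0.80, the cell cycle from -0.97 to -0.70 and ribosomal proteins from -0.79 to -0.56. With only the groups compared MHC class I was -0.30. With no filter potassium channels were 2.60 and HOX genes -0.96. The stricter filter, which tests fewer genes, gave 0.64 for MRTF cofactors, 0.56 for calcium, 1.39 for potassium, -2.64 for HOX, -0.42 for MHC class I and a reversed -0.78 for epithelial genes, with 13 potassium, 7 epithelial and 9 HOX genes higher in AT-3. Ribosomal proteins higher in AT-3 were 1 with library totals, with no filter, with only the groups compared, and without the carry-over libraries, and 1 to 3 with a library left out. Immediate early genes higher in E0771 were 5 with library totals and with only the groups compared, and 3 to 5 with a library left out. With library totals 1 actin was higher in E0771.

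A 2-fold threshold left 3287 genes higher in E0771 under wild type, 3739 and 3171 under empty vector, 4263 and 3327 under Y238A, and 2154 and 1113 changes of gap, with 5277 gaps kept, 625 closed and 222 reversed. Calls toward AT-3 and E0771 were then 13 and 4 for actomyosin, 5 and 0 for MRTF cofactors, 10 and 3 for YAP targets, 1 and 17 for the cell cycle, and 0 and 14 for ribosomal proteins. Smooth muscle had 2 toward E0771, integrins 21 toward AT-3, calcium 6 and receptors 3 toward E0771. Of all genes, 31.0% were called toward AT-3 and 18.4% toward E0771 at that threshold.

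The sign of Actg1 turned with library totals (-0.13), with only the groups compared (-0.052) and without AT-3 replicate 3, in a range of -0.044 to 0.13 over libraries left out. That of Dusp2 turned with library totals (-0.19), with only the groups compared (-0.11) and without AT-3 replicate 1, AT-3 replicate 3 or E0771 replicate 3, in a range of -0.16 to 0.13. Actg1 was called toward AT-3 with DESeq2 (0.12), with its size factors in edgeR (0.12) and without AT-3 replicate 1 (0.13). The cause was not tested in any case. Construct level, line and, for genes near 0, carry-over limit what the line differences can show.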
